A study of Homo sapiens with 4 samples.

Results

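The genes described here encode the proteasome, its regulators and the chaperones that build it. They are the 46 gene names, of 37810 in the deposited table, that begin with PSM, a subfamily letter from A to G and a number. The proteasome is the main protease for ubiquitin-tagged proteins in the cytosol and nucleus. Its 20S core is a barrel of alpha rings, which gate the entrance, around beta rings, which hold the cutting sites, and a 19S particle on the end recognises, unfolds and feeds in substrates with the help of an ATPase ring. Interferon exchanges the catalytic beta subunits for immunoproteasome subunits and raises the PA28 activator, which alters the peptides made for MHC class I presentation. The 46 names comprised 8 alpha subunits (PSMA), 10 beta subunits (PSMB), 6 ATPases (PSMC), 14 non-ATPase regulatory genes (PSMD), 4 activators (PSME), the inhibitor PSMF1 and 3 assembly chaperones (PSMG).

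RNA was taken from MDA-MB-231, a metastatic breast cancer line, and from MCF10A, an immortalized breast epithelial line that forms no tumours. Each line had been transfected with FOXF2 siRNA or control siRNA at 20 nM and harvested after 48 h. Each of the 4 combinations was read on 1 Illumina array, so that each line had 2 arrays, and nothing in the labels names separate cultures. Which and how many siRNA sequences were used is not stated in the labels. FOXF2 is a forkhead transcription factor, and the series set out to find its target genes in both kinds of breast cell. Its own intensity was 123 with FOXF2 siRNA and 259 with control siRNA in MDA-MB-231, and 143 with FOXF2 siRNA and 241 with control siRNA in MCF10A.

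A gene was taken as above background where its intensity exceeded an estimated limit of 121 to 122, which 13903 to 14153 of the names did on each array. All 7 basal epithelial markers in the table were lower in MDA-MB-231 by limma, and of 6 mesenchymal markers tested 3 were higher and 1, TGFBI, lower. The basal keratin gene KRT5 read 109 and 116 in MDA-MB-231, below the limit, and 7202 and 6790 in MCF10A, and the mesenchymal cadherin gene CDH11 read 1406 and 1108 in MDA-MB-231 and 124 and 107 in MCF10A. Of the blood cell markers, PTPRC, CD3E, LYZ and HBB were below the limit on all 4 arrays, whereas CD14 read 115 and 128 in MDA-MB-231 and 692 and 535 in MCF10A. Between FOXF2 siRNA and control siRNA arrays, Pearson's r across genes was 0.982 in MDA-MB-231 and 0.981 in MCF10A. The RNA was bulk RNA, in which fewer cells expressing a gene and less of its RNA per cell cannot be told apart.

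Of the 46 proteasome names, 43 were above background on all 4 arrays. PSMA8, the alpha subunit of the testis proteasome, was below the limit on all 4, at 94.9 and 109 in MDA-MB-231 and 86.4 and 88.1 in MCF10A, and was not tested. PSMB9 and PSMA7 fell below the limit on the MDA-MB-231 control array alone. The plot of intensities by array shows every member. Brightness depends on the probe as well as the transcript, so no gene's intensity is set against another's here. Of the 46 names, 28 stood for 1 probe on the array and 18 for several, up to 5 for PSMD12. The reference gene table lists named pseudogenes for 21 of them, among them PSMC1 (13), PSME2 (6), PSMA6 and PSMD7 (4 each), and whether probes also bound such copies was not tested.

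**Figure D1:**
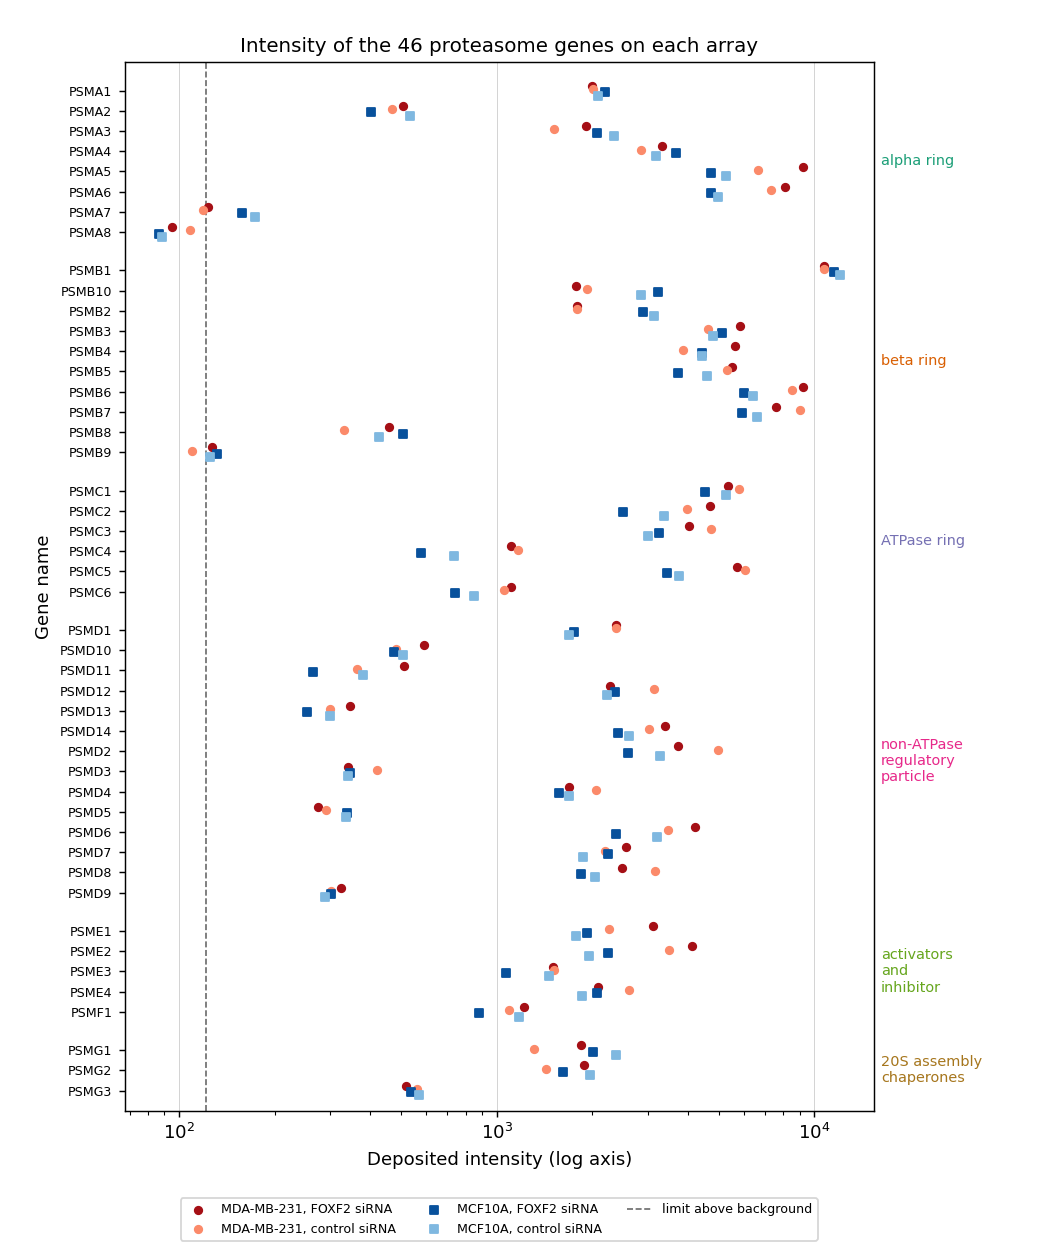
Deposited intensity (log axis) of the 46 proteasome genes on each of the 4 arrays, grouped by part of the complex. Circles are MDA-MB-231 and squares MCF10A, dark symbols FOXF2 siRNA and light symbols control siRNA, and the dashed line is the limit above background (122). PSMA8 lies below the limit on all arrays, and PSMA7 and PSMB9 lie next to it.

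Between the lines, most ATPase genes and both PA28 genes that interferon induces were called higher in MDA-MB-231. PSMB2, PSMB10, PSMA7 and PSMG1 were called lower. These calls depended on the spread assumed and most of them on which arrays were used. With limma over all 4 arrays, 12 of the 45 tested members were higher in MDA-MB-231 and 4 were lower at a Benjamini-Hochberg adjusted p under 0.05, and 29 did not pass. The members called were 26.7% higher and 8.89% lower, where 10.2% and 9.48% of all 20746 genes tested were called higher and lower, and 16.5% and 14.6% of the 9962 genes above background on all 4 arrays. In either direction the members' share was 35.6%, against 19.7% of all genes and 31.1% of those above background throughout. The median log2 difference of the members was 0.22 (range -1.16 to 0.90), against 0.03 over all genes tested, and 32 of the 45 lay above 0 (71.1%, against 52% of all genes). Both MDA-MB-231 arrays lay above both MCF10A arrays for 22 members (48.9%, against 27.7% of all genes tested) and below both for 8 (17.8%, against 24.9%), and 52.6% of all genes were separated in one way or the other. All genes tested include many near background. For sign and separation, no share is given over the 9962 genes above background on all 4 arrays. The plot of line differences shows the members by part of the complex.

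**Figure D2:**
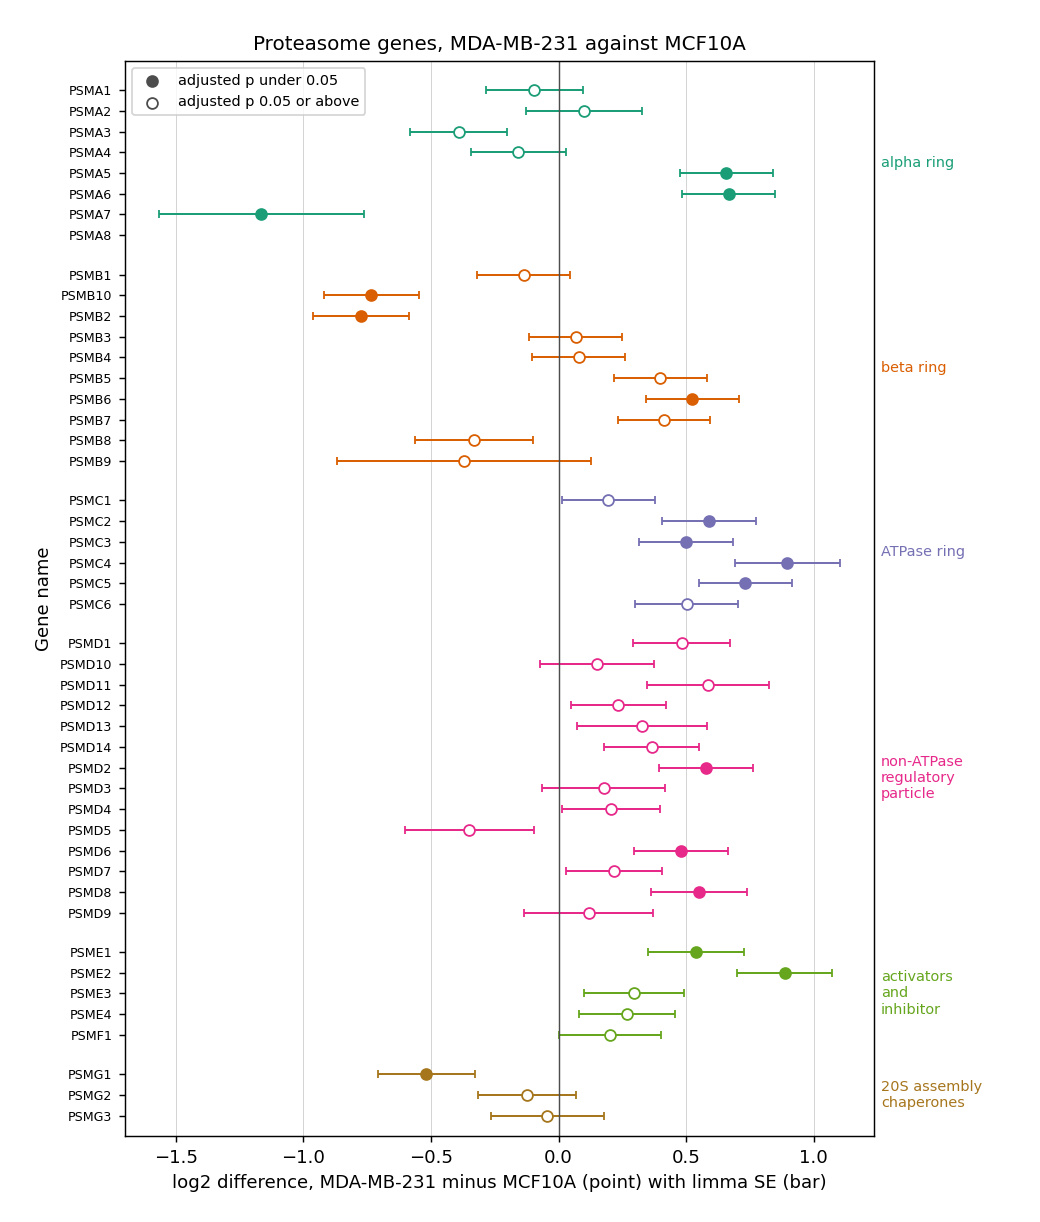
Log2 difference of each proteasome gene, MDA-MB-231 minus MCF10A, with the limma SE as a bar, from 4 arrays. Filled points had an adjusted p under 0.05 and open points did not, and PSMA8 was not tested. All 6 ATPase genes lie right of 0, between 0.19 and 0.90, whereas the 3 immunoproteasome subunits and the 3 assembly chaperones lie left of it.

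These calls lean on limma's trend, in which a gene's spread is set wholly by genes of similar brightness. No member was called when the prior spread did not follow brightness (lowest adjusted p = 0.0595, 4 members at an unadjusted p under 0.05) or when a gene was judged by its own spread alone (adjusted p of at least 0.437, 5 members). Of all 20746 genes, 1884 were called in the former fit and 0 in the latter. With 1 array left out and line as the only term, limma called 3 members higher and 1 lower without the MDA-MB-231 FOXF2 siRNA array, 6 and 2 without the MDA-MB-231 control array, 2 and 1 without the MCF10A FOXF2 siRNA array, and 9 and 2 without the MCF10A control array. PSMC5 and PSME2, higher, and PSMB2, lower, were called each time. PSMC2, PSMD2, PSMD6 and PSME1 were called in 1 of the 4 fits. PSMA7, PSMB6, PSMC3, PSMD8 and PSMG1 were called in 0 of 4, with the sign of the difference kept. The log2 difference of PSMG1 was -0.26 without the MDA-MB-231 control array and -0.78 without the MDA-MB-231 FOXF2 siRNA array. Each of these fits leaves 1 array in a line, and fewer of all genes, too, were called in each direction than over all 4 arrays.

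The ATPase ring unfolds substrates and opens the gate of the core. Each of its 6 genes was brighter on both MDA-MB-231 arrays than on both MCF10A arrays, as were 27.7% of all genes tested. By limma 4 were called higher (66.7%, against 16.5% of genes above background on all 4 arrays). PSMC4 read 1107 and 1166 in MDA-MB-231, against 577 and 736 in MCF10A, a log2 difference of 0.90 (SE 0.21, adjusted p = 1.44e-04). PSMC5 read 5733 and 6075 in MDA-MB-231, against 3441 and 3745 in MCF10A, with a log2 difference of 0.73 (SE 0.18, adjusted p = 6.12e-04). Both genes were separated by more than the gap between the arrays of either line. PSMC2 read 4689 and 3987 in MDA-MB-231 and 2509 and 3360 in MCF10A (0.59, adjusted p = 0.00939). For PSMC3 the intensities were 4038 and 4734 in MDA-MB-231 and 3243 and 2997 in MCF10A (0.50, adjusted p = 0.036). PSMC6 and PSMC1 did not pass, with log2 differences of 0.50 and 0.19 (adjusted p = 0.0657 and 0.603). The median of the ring was 0.55.

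Among the non-ATPase genes of the regulatory particle, 13 of 14 had a difference above 0 (92.9%, against 52% of all genes tested). Of the 14, 3 were called, all higher. These were 21.4%, against 10.2% of all genes tested and 16.5% of those above background on all 4 arrays. PSMD2, a base scaffold that docks ubiquitin-binding proteins, read 3714 and 4979 in MDA-MB-231 and 2597 and 3261 in MCF10A (log2 difference 0.58, SE 0.18, adjusted p = 0.0114). The lid subunit PSMD8 read 2476 and 3149 in MDA-MB-231, against 1838 and 2035 in MCF10A (0.55, SE 0.19, adjusted p = 0.0205). For both, the arrays of a line lay apart (by 0.43 for PSMD2 and 0.36 for PSMD8 on the log2 scale in MDA-MB-231), yet the lines did not overlap. PSMD6, another lid subunit, read 4205 and 3468 in MDA-MB-231 and 2378 and 3210 in MCF10A (0.48, adjusted p = 0.0483), and its call was kept under 3 of 16 other settings. The remaining lid genes had log2 differences of 0.59 for PSMD11, 0.37 for PSMD14, which encodes the deubiquitinase of the lid, 0.33 for PSMD13, 0.23 for PSMD12, 0.22 for PSMD7 and 0.18 for PSMD3, none past the threshold. PSMD11 separated the lines with FOXF2 siRNA (1.26) but hardly with control siRNA (-0.08). Of the other base genes, PSMD1, a scaffold of the base, had a difference of 0.48 (adjusted p = 0.0548) and the ubiquitin receptor gene PSMD4 of 0.21. The chaperones of base assembly PSMD5, PSMD9 and PSMD10 had differences of -0.35, 0.12 and 0.15, none called. PSMD5 read 274 and 291 in MDA-MB-231 and 337 and 336 in MCF10A, without overlap.

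The alpha ring was split. PSMA5 read 9211 and 6661 in MDA-MB-231, against 4726 and 5288 in MCF10A, a log2 difference of 0.66 (SE 0.18, adjusted p = 0.00244). PSMA6 read 8066 and 7297 in MDA-MB-231, against 4744 and 4988 in MCF10A (0.67, SE 0.18, adjusted p = 0.00202). In the opposite direction, PSMA7 read 124 and 119 in MDA-MB-231 and 158 and 173 in MCF10A (-1.16, SE 0.40, adjusted p = 0.0225). Since 119 lay below the limit of 121, this difference rests in part on an upper limit. It was -0.45 without background correction and -0.71 with an offset of 50, and the mean deposited intensity in MDA-MB-231 was 0.732 of that in MCF10A. PSMA3, PSMA4, PSMA1 and PSMA2 had differences of -0.39, -0.16, -0.09 and 0.10 and did not pass.

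In the beta ring the constitutive catalytic subunits and their immunoproteasome counterparts lay on opposite sides of 0. PSMB6, the caspase-like subunit, read 9252 and 8516 in MDA-MB-231 and 5997 and 6405 in MCF10A (log2 difference 0.52, SE 0.18, adjusted p = 0.0225). PSMB5, the chymotrypsin-like subunit, read 5529 and 5319 in MDA-MB-231, against 3724 and 4593 in MCF10A (0.40, adjusted p = 0.122). PSMB7, the trypsin-like subunit, read 7587 and 9055 in MDA-MB-231 and 5909 and 6604 in MCF10A (0.41, adjusted p = 0.0996). Both MDA-MB-231 arrays were the brighter for all 3, as for 27.7% of all genes tested, and PSMB6 was called.

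PSMB10, which takes the place of PSMB7 in the immunoproteasome, read 1785 and 1933 in MDA-MB-231, against 3224 and 2849 in MCF10A. Its log2 difference was -0.73 (SE 0.19, adjusted p = 8.73e-04), and MCF10A was higher by 1.66-fold. PSMB8, the counterpart of PSMB5, read 457 and 330 in MDA-MB-231 and 507 and 427 in MCF10A (-0.33, adjusted p = 0.42), and the lines overlapped. PSMB9, the counterpart of PSMB6, read 127 and 110 in MDA-MB-231, the second below the limit, and 132 and 125 in MCF10A (-0.37, adjusted p = 0.738), too near background for the lines to be told apart. The plot of catalytic and PA28 genes sets these side by side. Whether the constitutive and immunoproteasome subunits differed from each other in their line difference was not tested.

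**Figure D3:**
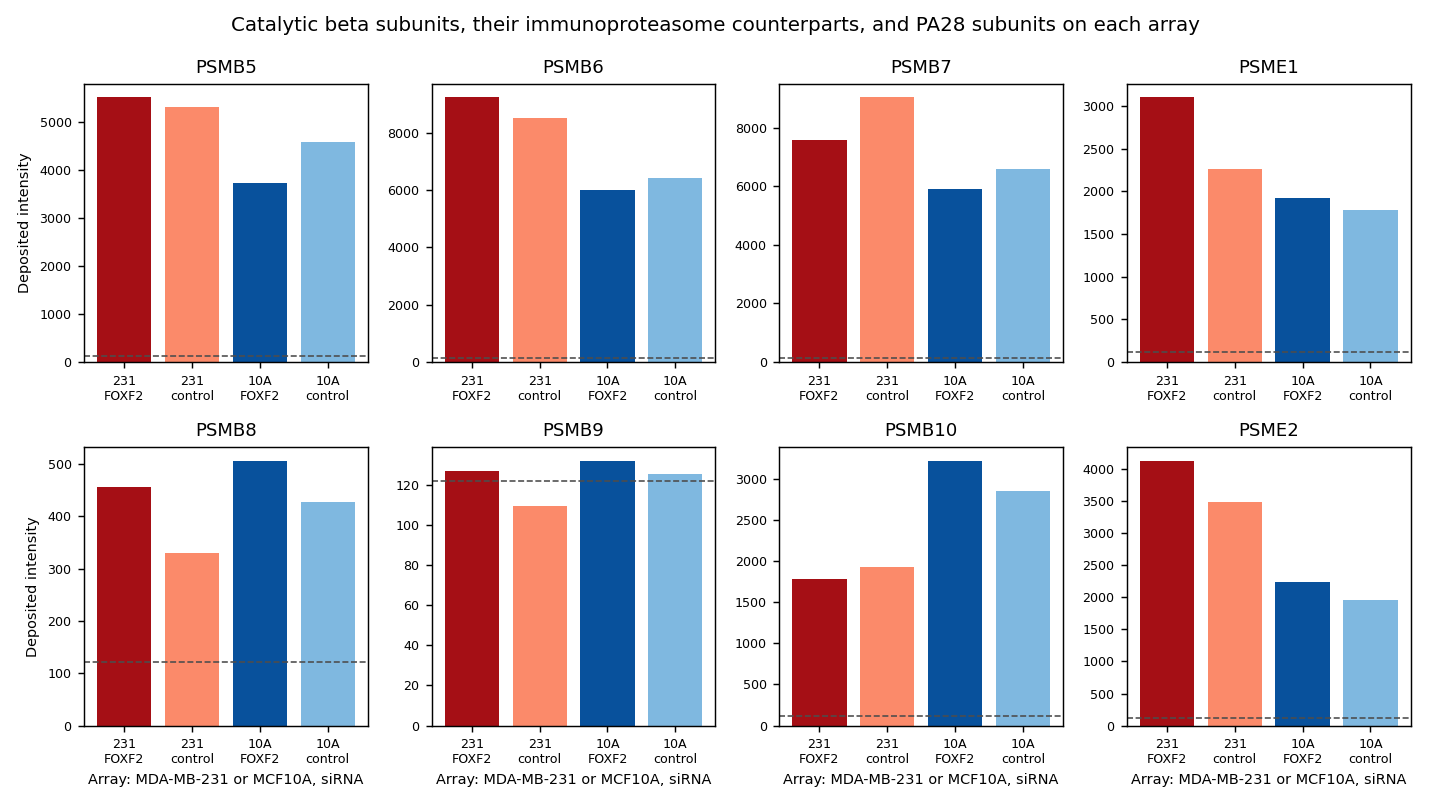
Deposited intensity of the 3 constitutive catalytic subunits and PSME1 (upper row) and of the 3 immunoproteasome subunits and PSME2 (lower row), 1 bar per array, with each panel on its own axis from 0. In the labels 231 is MDA-MB-231 and 10A is MCF10A, FOXF2 and control name the siRNA, and the dashed line is the limit above background. PSMB10 is lower and PSME1 and PSME2 are higher on both MDA-MB-231 arrays, whereas the lines overlap in PSMB8 and PSMB9.

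Of the beta subunits without a cutting site, PSMB2 read 1788 and 1797 in MDA-MB-231 and 2886 and 3131 in MCF10A. Its log2 difference was -0.77 (SE 0.19, adjusted p = 3.79e-04), and MCF10A was higher by 1.71-fold. PSMB1, PSMB3 and PSMB4 had differences of -0.14, 0.07 and 0.08 and did not pass.

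Both subunits of PA28, the ring-shaped activator that binds the end of the core and that interferon induces, were called higher. PSME2, its beta subunit, read 4136 and 3493 in MDA-MB-231 and 2241 and 1958 in MCF10A, a log2 difference of 0.89 (SE 0.19, adjusted p = 2.39e-05). PSME1, the alpha subunit, read 3110 and 2258 in MDA-MB-231, against 1924 and 1780 in MCF10A (0.54, SE 0.19, adjusted p = 0.0245). The nuclear PA28 gamma gene PSME3 and the PA200 gene PSME4 had differences of 0.30 and 0.27, and the inhibitor gene PSMF1 of 0.20, none of them called. PSMF1 read 1222 and 1093 in MDA-MB-231 and 880 and 1173 in MCF10A, and the lines overlapped. Of the chaperones that assemble the alpha ring, PSMG1 read 1843 and 1314 in MDA-MB-231 and 2013 and 2382 in MCF10A (-0.52, SE 0.19, adjusted p = 0.0359). Its partner PSMG2 and PSMG3 had differences of -0.12 and -0.04. PSMG1 differed by -0.90 between the control arrays and by -0.13 between the FOXF2 siRNA arrays.

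Promoters are shown for the members with the clearest line differences in each direction, PSMC4, PSME2, PSMB2 and PSMB10, and for PSMB8, which was past 1.5-fold with FOXF2 siRNA in MDA-MB-231. The windows of 300 bases span an annotated start, 5′ to 3′, from RefSeq on GRCh38.p14, and capitals mark any match to a motif on either strand. The motifs were the CCAAT box, by the letters of its name, and the GC box of Sp family factors, spelled GGGCGG. The core of the antioxidant response element, which is read by NFE2L1 and NFE2L2, was searched as TGAC followed after any 3 bases by GC. The core of the interferon-stimulated response element was searched as a pair of GAAA runs with any 2 bases in between. No motif overlapped one of another kind in them. PSMB8 has a further annotated start, whose window is not shown.
PSMC4, chr19:39970915-39971214, plus strand: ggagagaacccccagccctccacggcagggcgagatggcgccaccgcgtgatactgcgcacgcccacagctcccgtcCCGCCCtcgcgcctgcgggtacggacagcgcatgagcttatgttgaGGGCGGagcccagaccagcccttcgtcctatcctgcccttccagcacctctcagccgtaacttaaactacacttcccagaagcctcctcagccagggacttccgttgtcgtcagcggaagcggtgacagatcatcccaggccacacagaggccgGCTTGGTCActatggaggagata
PSME2, chr14:24146561-24146860, minus strand: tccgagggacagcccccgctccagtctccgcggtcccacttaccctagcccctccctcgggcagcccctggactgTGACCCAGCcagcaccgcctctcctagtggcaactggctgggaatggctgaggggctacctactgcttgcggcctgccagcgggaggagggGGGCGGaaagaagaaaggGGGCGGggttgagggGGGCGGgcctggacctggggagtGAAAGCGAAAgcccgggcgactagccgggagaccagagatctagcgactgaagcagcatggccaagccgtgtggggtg
PSMB2, chr1:35641477-35641776, minus strand: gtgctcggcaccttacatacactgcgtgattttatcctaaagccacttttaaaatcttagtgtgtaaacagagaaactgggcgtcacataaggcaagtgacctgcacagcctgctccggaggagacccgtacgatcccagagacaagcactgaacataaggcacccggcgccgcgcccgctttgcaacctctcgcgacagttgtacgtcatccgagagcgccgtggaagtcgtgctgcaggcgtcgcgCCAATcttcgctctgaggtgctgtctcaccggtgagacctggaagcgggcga
PSMB10, chr16:67936801-67937100, minus strand: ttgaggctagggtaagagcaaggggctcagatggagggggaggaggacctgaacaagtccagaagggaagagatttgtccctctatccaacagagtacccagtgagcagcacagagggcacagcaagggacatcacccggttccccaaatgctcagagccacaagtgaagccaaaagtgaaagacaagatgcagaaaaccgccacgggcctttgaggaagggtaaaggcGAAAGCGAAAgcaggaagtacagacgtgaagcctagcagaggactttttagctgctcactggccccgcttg
PSMB8, chr6:32843998-32844297, minus strand: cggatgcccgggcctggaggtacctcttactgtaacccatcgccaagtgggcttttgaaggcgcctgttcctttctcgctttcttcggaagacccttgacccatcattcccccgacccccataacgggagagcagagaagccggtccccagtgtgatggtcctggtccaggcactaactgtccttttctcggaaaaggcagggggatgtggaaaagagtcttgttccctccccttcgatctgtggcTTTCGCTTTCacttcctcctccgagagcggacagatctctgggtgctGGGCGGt
PSME2 and PSMB10 both hold GAAAGCGAAA, beginning at positions -28 and -21 relative to the start, yet PSME2 was higher and PSMB10 lower in MDA-MB-231. PSMB8 holds the same letters on the other strand.

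Over the family, 40 of the 46 names had a window in the RefSeq table, with 49 windows in all. The interferon core was in 6 of the 49 windows (12.2%), against 3.57% of all 35116 promoter windows, in PSMA4, PSMB4, PSMB8, PSMB10, PSME1 and PSME2. The antioxidant response core was in 15 (30.6%, against 13.3% of all), the GC box in 34 (69.4%, against 45.0%) and the CCAAT box in 19 (38.8%, against 34.6%). A match describes the letters and does not show that a factor binds there.

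Within a line, FOXF2 siRNA and control siRNA differed by at most 0.73 on the log2 scale for any member above background on both arrays. In MDA-MB-231, 2 of 43 such members were at least 1.5-fold higher with FOXF2 siRNA (4.65%, against 6.61% of all 11400 genes) and none was 1.5-fold lower (6.31% of all genes). In MCF10A none of 45 was 1.5-fold higher (7.29% of all 11316 genes) and 1 was 1.5-fold lower (2.22%, against 5.73% of all genes). These shares are no higher than those over all genes. With 1 array per group there was no test within a line. Over all genes above background on both arrays, the scaled median absolute deviation of this log2 difference was 0.37 in MDA-MB-231 and 0.34 in MCF10A. That spread holds array noise and any siRNA effect together, and most differences of named members below are near it in size.

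PSMD11, a lid subunit, was past 1.5-fold in each line, in opposite directions. It read 509 with FOXF2 siRNA and 363 with control siRNA in MDA-MB-231, a log2 difference of 0.61, and 264 with FOXF2 siRNA and 380 with control siRNA in MCF10A, a difference of -0.73. The control arrays of the lines lay close together, and the FOXF2 siRNA arrays lay on either side of them. PSMB8 read 457 with FOXF2 siRNA and 330 with control siRNA in MDA-MB-231 (0.60), and 507 with FOXF2 siRNA and 427 with control siRNA in MCF10A (0.30). It was higher with FOXF2 siRNA in both lines. Without background correction no member reached 1.5-fold in either line.

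In MDA-MB-231 the next highest members were PSMB4 (5639 with FOXF2 siRNA and 3870 with control siRNA, log2 difference 0.55), PSMG1 (0.52), PSME1 (0.48), PSMA5 (0.47) and PSMG2 (0.42). The lowest were PSMD12 (2283 with FOXF2 siRNA and 3141 with control siRNA, -0.48), PSMD2 (-0.43), PSMD3 (-0.39), PSMD8 (-0.36) and PSME4 (-0.34). In all, 24 members were higher and 19 lower (50.1% and 49.9% of all genes were), with a median of 0.12 against 0.00 over all genes tested. PSMB1 gave the same value, 10741, on both MDA-MB-231 arrays, and its sign and those of PSMB2, PSMD1 and PSME3, all within 0.01 of 0, turned under some scalings, as did that of PSMD5 in MCF10A. PSMB9 was above the limit with FOXF2 siRNA (127) and below it with control siRNA (110), as was PSMA7 (124 with FOXF2 siRNA and 119 with control siRNA), and neither is given a fold here.

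In MCF10A 28 of 45 members were lower with FOXF2 siRNA and 17 higher (50.7% and 49.3% of all genes were), with a median of -0.12, against 0.00 over all genes tested. After PSMD11 the lowest were PSMA2 (401 with FOXF2 siRNA and 532 with control siRNA, -0.50), PSME3 (-0.48), PSMF1 (-0.45), PSMD6 (-0.45), PSMC2 (-0.43) and PSMC4 (-0.40). Of the ATPase ring, 5 of 6 members were lower, as were the 3 assembly chaperones and the 3 constitutive catalytic subunits. The immunoproteasome subunits PSMB8, PSMB9 and PSMB10 had differences of 0.30, 0.23 and 0.18, and the highest of the others were PSMD7 (0.27), PSMA4 (0.22) and PSME2 (0.20). PSMB9 read 132 with FOXF2 siRNA and 125 with control siRNA, close to the limit, and its log2 difference in deposited intensity was 0.08.

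Set side by side over the 43 members above background on all 4 arrays, 16 were higher with FOXF2 siRNA in MDA-MB-231 and lower in MCF10A (37.2%, against 23.9% of the 9962 genes), 8 had the opposite pattern (23.1% of genes), 8 were higher in both lines (25.9% of genes) and 11 lower in both (27.1% of genes). Lower in both were PSMD2 (-0.43 in MDA-MB-231 and -0.34 in MCF10A), PSMD8 (-0.36 and -0.15) and PSMB7 (-0.26 and -0.16), among others. The plot of siRNA differences shows the spread over the quadrants. With limma over both lines, no member passed (0.13% of all 20746 genes did as higher and 0.0868% as lower, 0.217% in all). The lowest adjusted p was 0.845, for PSMD2 (log2 difference -0.39, SE 0.18), which was the 1 member at an unadjusted p under 0.05, a limit that 5.45% of all genes met. PSMB8 had a fitted difference of 0.45 (SE 0.23, adjusted p = 0.917), higher in 2 of 2 lines. Without a trend limma found no member at an unadjusted p under 0.05, and with each gene's own spread it found 2.

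**Figure D4:**
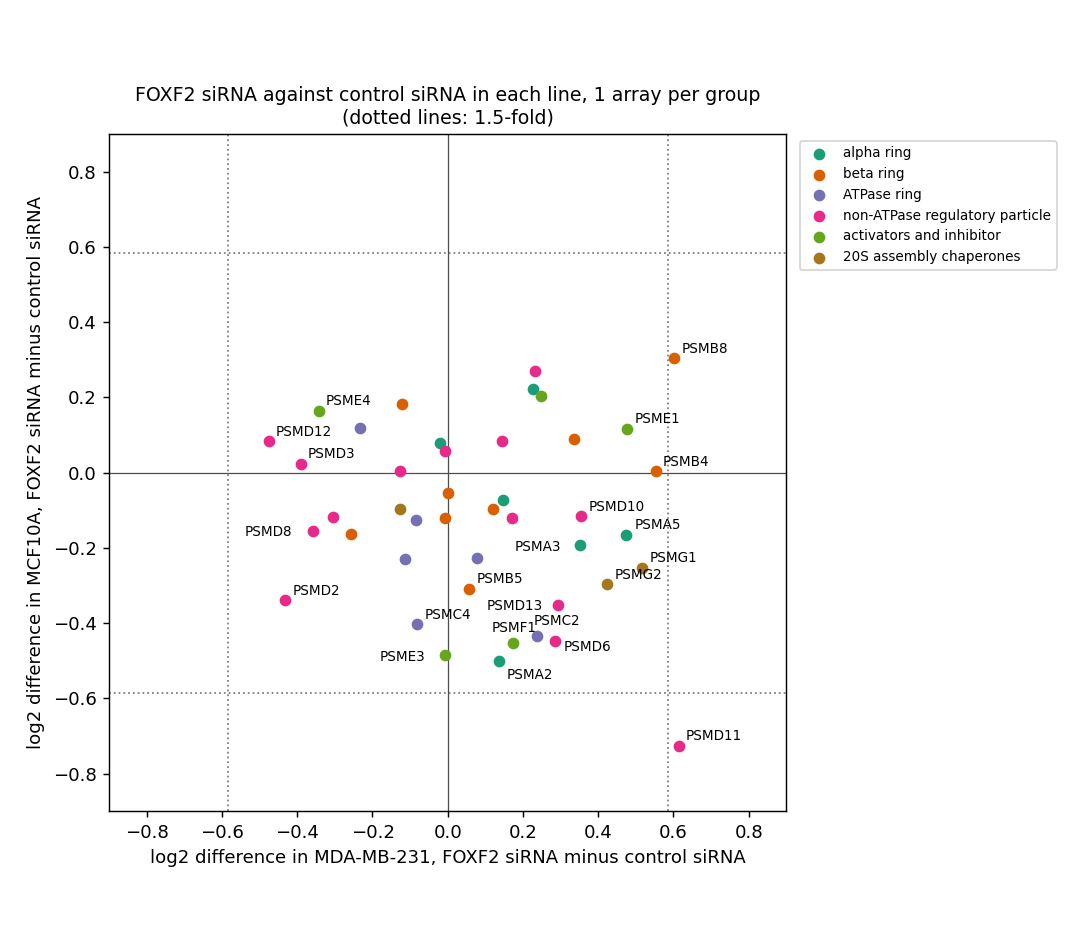
Log2 difference of the 43 proteasome genes above background on all 4 arrays, FOXF2 siRNA minus control siRNA, in MDA-MB-231 (horizontal axis) and in MCF10A (vertical axis), from 1 array per group, coloured by part of the complex. Dotted lines mark 1.5-fold. PSMD11 lies past it in both lines with opposite signs, PSMB8 lies past it in MDA-MB-231, and 16 genes lie in the lower right quadrant.

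Among 26 partners and regulators of the proteasome outside the family, 4 were higher and 4 lower in MDA-MB-231 by limma, and 17 of the 25 tested did not pass. These were 16% of the list in each direction, near the 16.5% higher and 14.6% lower among genes above background on all 4 arrays. NFE2L1, the transcription factor that raises proteasome genes when proteasome activity falls, had a log2 difference of 0.76 (adjusted p = 0.0016), and its relative NFE2L3 one of 4.67 (1074 and 1060 in MDA-MB-231, against 114, which is below the limit, and 138 in MCF10A). ADRM1, a ubiquitin receptor of the base, was higher by 0.95 (adjusted p = 3.49e-06) and the polyubiquitin gene UBB by 0.70 (adjusted p = 0.00106). Lower were the shuttle receptor gene UBQLN2 (-1.06), the proteasome-bound deubiquitinase genes USP14 (-0.87) and UCHL5 (-0.66), and TXNL1 (-0.75), a thioredoxin bound to the 19S particle. The core maturation factor gene POMP had a difference of 0.00 (adjusted p = 0.995).

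With FOXF2 siRNA, USP14 read 210, against 289 with control siRNA, in MDA-MB-231 and 305, against 469 with control siRNA, in MCF10A. These were log2 differences of -0.71 and -0.81, past 1.5-fold in both lines after background correction, and the adjusted p over both lines was 0.315. In deposited intensity the ratio was 0.728 in MDA-MB-231, short of 1.5-fold, and 0.650 in MCF10A. TXNL1 was higher by 0.99 and NFE2L2 by 0.67 with FOXF2 siRNA in MDA-MB-231, with differences of -0.19 and 0.10 in MCF10A. In MDA-MB-231, 2 of 25 genes of the list were at least 1.5-fold higher (8%, against 6.61% of all genes) and 1 lower (6.31% of all genes). In MCF10A 0 of 24 were 1.5-fold higher (7.29% of all genes) and 1 lower (4.17%, against 5.73% of all genes).

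Of 23 genes of MHC class I presentation and interferon signalling, 22 were tested, 4 were higher (18.2%) and 5 lower (22.7%) in MDA-MB-231. Of all genes tested 10.2% were higher and 9.48% lower, and of those above background on all 4 arrays 16.5% and 14.6%. Among the higher were HLA-B (0.73), IRF9 (0.86) and TAP2 (0.91), which encodes a chain of the peptide transporter. Lower were TAP1 (-1.17, adjusted p = 4.23e-07), which encodes the other chain, HLA-E (-1.24), HLA-C (-1.28), and the interferon-gamma receptor genes IFNGR1 (-0.76) and IFNGR2 (-0.73). HLA-C was below the limit on both MDA-MB-231 arrays, and cross-hybridization between the similar HLA genes was not tested. With FOXF2 siRNA 5 members were at least 1.5-fold higher in MCF10A, HLA-F (1.03), HLA-B (0.83), IFNGR1 (0.72), STAT2 (0.64) and TAPBP (0.63), and none in MDA-MB-231, where 7.29% of all genes were so in MCF10A and 6.61% in MDA-MB-231. Without background correction the 5 became 2, HLA-F and IFNGR1. None of the list passed limma over both lines (lowest adjusted p = 0.496, 4 at an unadjusted p under 0.05).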

How the data were processed

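The authors' deposited table of linear intensities, 1 per gene name and array, was used for the 4 arrays of biotinylated cRNA on Illumina arrays, per the labels. The 4 columns had medians of 111 to 112 and nearly equal quantiles, while their normalization, software and probe summary are not stated there. The deposited table of single probes served only to count probes, since its 8 columns of per-sample values match no label. The background of each array was the mode of a kernel density (bandwidth 1.5, below 140) and the spread on its lower side. The limit above background was its upper 1%. Values were corrected by limma's normexp, 16 was added and log2 taken. limma 3.58.1 in R 4.3.3 fitted siRNA and line together, leaving 1 degree of freedom, with eBayes trend set on (prior degrees of freedom infinite). The 20746 genes that passed the limit on any array were tested, with Benjamini-Hochberg adjustment. The 1 residual degree of freedom is how far the siRNA difference differs between the lines, not a spread between repeat arrays. With the prior infinite, each p-value rests on such residuals in genes of similar brightness. That spread may be technical or a difference in response. Slide or scan were not tested as batches. Members, lists and tests were chosen with earlier results of these data known, and the promoter motifs after the values were seen. Members named with all values were the catalytic subunits, those past a threshold, the extremes of line difference in each subgroup, and those not above background throughout. All 46 names are current symbols in the reference table (GRCh38.p14). Alternatives covered background correction, offset, scaling, limits, filters, prior spread, terms, thresholds and arrays left out. Some genes of the marker and pathway lists are counted but not reported here by name.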

Additional observations from a re-analysis of the deposited data

Results flagged for a closer look

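After background correction, PSMD11 was at least 1.5-fold higher with FOXF2 siRNA in MDA-MB-231 and at least 1.5-fold lower in MCF10A, and the log2 differences of 0.61 and -0.73 lay 1.34 apart. It was singled out because the arrays of the lines moved in opposite directions, which 0.703% of the 9962 genes above background on all 4 arrays also did at that size. With 1 array per group the difference between the lines was not tested. In deposited intensity its ratio was 1.40 in MDA-MB-231 and 0.695 in MCF10A, so that without background correction it reached 1.5-fold in neither line. With an offset of 50 it did not reach 1.5-fold in MDA-MB-231. PSMD11 stands for 1 probe.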

How the results depend on the processing

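The 12 higher and 4 lower calls between lines were 10 to 15 and 3 to 4 under no background correction, an offset of 50, common-median scaling, quantile normalization, limits at the upper 5% and 0.1%, no filter, a filter on all 4 arrays, and line as the only term. Over all genes these settings called 1871 to 2199 higher and 1631 to 1996 lower, against 2116 and 1967 in the main fit. The member calls were 0 and 0 without a trend, where 915 of all 20746 genes were called higher and 969 lower. With each gene's own spread they were 0 and 0, and 0 of all genes passed. Requiring a log2 difference of at least 1 left 0 members higher and 1 lower, where 1193 of all genes were higher and 1235 lower. That member was PSMA7, whose difference was -0.45 without background correction and -0.71 with an offset of 50, both short of 1. With 1 array left out, which leaves 1 array in a line, fewer members and fewer of all genes were called in each direction. No member was called for siRNA over both lines under any of these settings that fitted it. For siRNA within a line, the 2 higher members in MDA-MB-231 became 0 without background correction, 0 with an offset of 50, 10 at a log2 limit of 0.32 and 0 at 2-fold, and the 0 lower became 5 at a log2 limit of 0.32. In MCF10A the 1 lower member became 0 without background correction, 9 at a log2 limit of 0.32 and 0 at 2-fold. The cause of these changes was not tested beyond what each threshold or omitted array itself changes. For siRNA within a line, the share of all genes under these alternatives is not given here. The scaled median absolute deviation over all genes given above, 0.37 in MDA-MB-231 and 0.34 in MCF10A, exceeds the log2 limit of 0.32. Leaving out an array beside the line term left no residual degree of freedom for siRNA, so that such a value equals the difference within 1 line. The labels give no replicate numbers to use as a block, and the siRNA fit over both lines, with line as a term, already compares the siRNAs within each line. Alternatives for the 2 lists outside the family were added after seeing the data. Precision is limited near background, where PSMA7 and PSMB9 lie.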

Other observations

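The 6 members with the interferon core in a promoter window were higher with FOXF2 siRNA in 5 of 6 cases in MDA-MB-231 and 6 of 6 in MCF10A. Their log2 differences were 0.60 and 0.30 for PSMB8 in MDA-MB-231 and in MCF10A, 0.55 and 0.00 for PSMB4, 0.48 and 0.12 for PSME1, 0.25 and 0.20 for PSME2, 0.23 and 0.22 for PSMA4, and -0.12 and 0.18 for PSMB10. Over all genes above background on both arrays, 50.1% were higher in MDA-MB-231 and 49.3% in MCF10A. Of the proteasome members as a whole, 24 of 43 were higher in MDA-MB-231 and 17 of 45 in MCF10A. Among members above background on all 4 arrays, those with a CCAAT box were higher in 12 of 18 cases in MDA-MB-231 and 5 in MCF10A, those with a GC box in 17 of 26 and 12, and those with the antioxidant response core in 7 of 14 and 10. In MCF10A PSMB4 counts as higher at 4435 with FOXF2 siRNA, against 4421 with control siRNA. A gene was counted if any of its windows held the motif, and responses of genes outside the family with these motifs were not counted. The motifs were chosen after the values were seen, and these counts carry no test.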
